A study of Rattus norvegicus with 9 samples.

Results

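The heme and iron handling genes measured here were Hmox1, Hmox2, Cd163, Fth1, Tf, Tfrc, Slc11a1, Slc11a2, Slc40a1, and Cp. They are the 10 genes of a list of names, and every probe that carries one of these names in the array files was taken, 17 probes in all, for 10 of the 19293 genes named on the array. For a gene with several probes, the one with the highest mean intensity over the 9 arrays represents it. All 10 genes had a representative probe well above background on every array, so all 10 were tested, among 23747 probes and 15596 named genes.

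The samples were the infarcted hemispheres of Sprague Dawley rats at day 14, on 9 one-color Agilent arrays with 3 rats in each group. Sham rats had a sham operation without a filament and received solvent. I/R rats (labelled model) had the middle cerebral artery occluded for 2 h, followed by reperfusion, without Danhong injection. DHI rats (labelled DH) had the same 2 h of occlusion and reperfusion and received Danhong injection, a preparation of medicinal plants, into the tail vein for 14 days. The study's methods describe male rats of 1 strain, and their age is not given in the sources used here. A hemisphere holds infarct, its border, and spared tissue together. In such bulk tissue, fewer cells of a type and less RNA per cell cannot be told apart. The labelled tissue carried neuronal and oligodendrocyte markers on every array: the summed level of 6 neuronal markers was 43.2 to 55.9 in Sham, 3.25 to 20.4 in I/R, and 12.4 to 43.8 after DHI, in multiples of the 75th percentile of the array.

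Heme is broken down by heme oxygenases into biliverdin, carbon monoxide, and free iron. Iron enters cells bound to transferrin through the transferrin receptor, crosses the endosomal membrane through divalent metal transporters, is stored in ferritin, and leaves cells through ferroportin, after which ceruloplasmin or hephaestin oxidizes it for loading onto transferrin. In the brain, oligodendrocytes are known as the main source of transferrin and as rich in ferritin, astrocytes carry ceruloplasmin at their surface, and macrophages that take up red cells and cell debris handle heme through the hemoglobin receptor Cd163 and inducible heme oxygenase.

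The probes decide which part of each transcript was read, so the stretches on which the results turn are given here, 5′ to 3′, as the array files list them, with positions in the rat build rn4 that the files use. The whole 60 bases are shown for 4 probes, and 30 bases for the others, and no annotation of exons or untranslated regions was used here. Capitals mark a polyadenylation signal (AATAAA or ATTAAA) or, in Fth1, the 28 bases that both of its probes share. Lower case carries no mark.
Hmox1, plus strand, chr19:13969336-13969395: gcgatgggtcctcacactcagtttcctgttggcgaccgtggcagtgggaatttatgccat
Hmox2, minus strand, within chr10:10914212-10914271: tggcatgttgcataccaatggacatcctct
Slc11a1, plus strand, chr9:73723371-73723827: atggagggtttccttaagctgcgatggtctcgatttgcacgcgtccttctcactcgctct
Slc11a2 at base 1618 of its transcript, minus strand, chr7:139099082-139099141: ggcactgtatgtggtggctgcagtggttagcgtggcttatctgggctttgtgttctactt
Slc11a2 at base 4271 of the same transcript, minus strand, within chr7:139094505-139094564: gaacttgctgtaATTAAAacaaaaacttcc
Slc11a2 at base 1764 of another transcript, minus strand, within chr7:139090121-139090180: tagttcagaggtgaacttgttcaaatgttt
Cp at base 2800, plus strand, chr2:105129670-105129729: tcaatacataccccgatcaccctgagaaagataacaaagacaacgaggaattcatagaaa
Cp at base 3596 of the same transcript, plus strand, within chr2:105135264-105135323: cggaaaatagagaaagtcaggatccaatta
Cp at base 3416 of another transcript, plus strand, within chr2:105148774-105148833: gctatattctaaattaacaagacatgtgct
Fth1, representative probe, plus strand, within chr1:212432616-212432675: caGGCTGCCTTTATCTTTTCTATAAGTTGC
Fth1, second probe, plus strand, within chr1:212432648-212432709: GGCTGCCTTTATCTTTTCTATAAGTTGCac
Tf, minus strand, within chr8:108217778-108217837: cacagagcacaaAATAAAaaatgactgttg
Tfrc, representative probe, minus strand, within chr11:69976628-69976687: atccaccagattattttcagtcttcacaag
The Slc11a1 probe covers 457 bases of the genome with its 60 bases, and the second Tfrc probe covers 1655, so both join exons across an intron. The 2 Fth1 probes overlap and are not independent readings. The probes of the paralogs Hmox1 and Hmox2 share no run of identical bases longer than 7, and those of Slc11a1 and Slc11a2 none longer than 5. Hmox1 was read by 10 spots per array and the other members by 1 or 2 spots per probe.

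Values below are log2 intensities minus the 75th percentile of the array, so that 0 is that percentile, and a difference of 1 is a 2-fold change. A gene was called when the unadjusted p of the limma model was under 0.05 and the fold change (FC) was over 1.5, which are the thresholds of the study's methods, and the p adjusted over all 23747 probes is given beside it. Only called genes are said to have risen or fallen. Set against each other, different probes do not give relative amounts of different genes. All Sham and I/R arrays shared 1 slide and 1 scan, and all DHI arrays were on slide 2, so a slide effect and the effect of DHI cannot be told apart. The I/R versus Sham comparison lies within 1 slide.

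After I/R, Hmox1, Slc11a1, Cp, and Cd163 rose and Hmox2 and Tfrc fell, while Fth1, Tf, Slc40a1, and Slc11a2 were not called. Of the 10 members 6 were called, 4 higher and 2 lower, where 43.1% of all probes were called, 20.8% higher and 22.3% lower. With the adjusted p in place of the unadjusted one, 5 of 10 members and 31.5% of all probes passed. For 8 of 10 members the I/R and Sham values lay apart without overlap, as they did for 62.5% of all probes. The median log2 fold change of the members was 0.65, and that of all probes was -0.097. Shares near those of all probes say nothing particular about the list, and the sizes and the arrays of the single members are described instead.

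**Figure D1:**
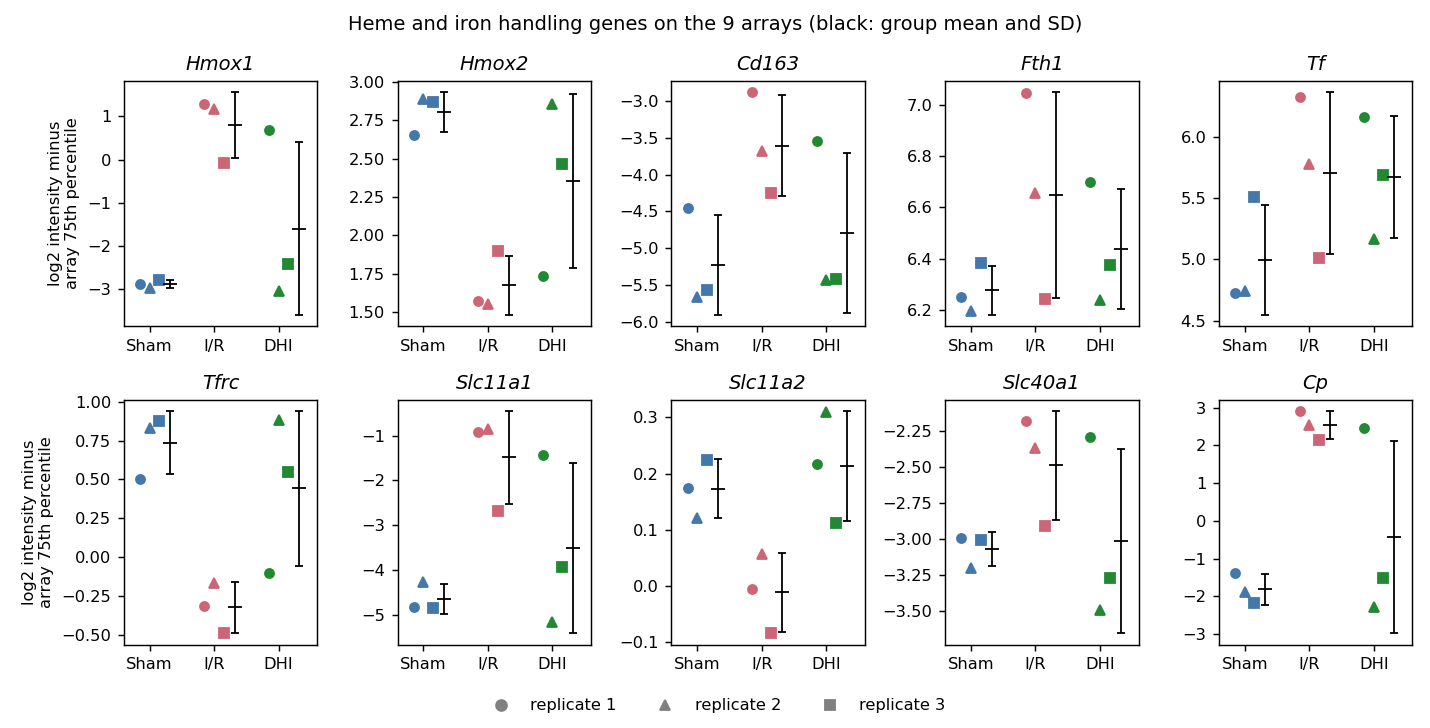
Representative probes of the 10 genes on the 9 arrays, 1 panel per gene: the y axis is the log2 intensity minus the 75th percentile of the array, points are single arrays with the replicate number as the symbol, and the black bar is the group mean with its SD. Cp on all 3 I/R arrays and on the first DHI array lies between 2.16 and 2.92, and on the other 5 arrays at or below -1.38.

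Hmox1, the inducible heme oxygenase, was -2.87, -2.98, and -2.77 on the Sham arrays, 1.30, 1.18, and -0.07 on the I/R arrays, and 0.68, -3.04, and -2.42 on the DHI arrays. All I/R arrays lay above all Sham arrays, and the third I/R array was the closest of them to Sham. The fitted rise was 12.8-fold, a log2 fold change of 3.68 (SE 0.88, 95% interval 1.65 to 5.71, adjusted p = 0.0396). Hmox2, the constitutive heme oxygenase and the form known to be abundant in neurons, went the other way. It was 2.65, 2.89, and 2.87 in Sham, 1.57, 1.56, and 1.90 in I/R, and 1.74, 2.86, and 2.47 after DHI. It was 2.18-fold lower in I/R than in Sham, a log2 fold change of -1.13 (SE 0.276, adjusted p = 0.0396), with no overlap between those groups. Thus the 2 heme oxygenases moved in opposite directions, and over the 9 arrays Pearson's r between them was -0.987, a description in which the group difference is included.

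Cd163, the scavenger receptor through which macrophages take up hemoglobin bound to haptoglobin, was -4.45, -5.67, and -5.57 in Sham, -2.88, -3.69, and -4.25 in I/R, and -3.54, -5.44, and -5.42 after DHI. The I/R arrays lay above the Sham arrays. The rise was 3.08-fold, with a log2 fold change of 1.62 (SE 0.606, unadjusted p = 0.0281, adjusted p = 0.0675), and it did not pass the adjusted threshold. The call was lost when Sham array 2, Sham array 3, I/R array 1, or I/R array 2 was left out, with log2 fold changes between 1.26 and 1.66 and unadjusted p between 0.0556 and 0.0971.

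The ferritin heavy chain and transferrin showed no called change, and the ferritin light chain Ftl1 was not on the array by name. Fth1, the heavy chain of ferritin with the ferroxidase activity, ranged from 6.20 to 6.38 in Sham, from 6.24 to 7.05 in I/R, and from 6.24 to 6.70 after DHI, and its I/R difference was 0.37 (95% interval -0.151 to 0.895, adjusted p = 0.212). Tf, the iron carrier, ranged from 4.73 to 5.51 in Sham, from 5.01 to 6.33 in I/R, and from 5.16 to 6.16 after DHI. Its I/R difference was 0.71 (95% interval -0.217 to 1.64, adjusted p = 0.183). Without I/R array 3, the lowest of its group, Tf was called at 1.06. The 2 genes varied alike over the 9 arrays (Pearson's r 0.906), and for both the highest values were those of I/R array 1 and DHI array 1.

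Tfrc and Slc11a1 changed in opposite directions. Tfrc, the receptor that takes up transferrin-bound iron, was 0.50, 0.83, and 0.88 in Sham, -0.31, -0.17, and -0.49 in I/R, and -0.10, 0.88, and 0.55 after DHI. It was 2.09-fold lower in I/R (log2 fold change -1.06, SE 0.259, adjusted p = 0.0396), and its second probe, which joins exons, gave 2.46-fold lower (adjusted p = 0.0465). Slc11a1, the metal transporter of phagosomes in macrophages, was -4.82, -4.26, and -4.85 in Sham, -0.92, -0.85, and -2.69 in I/R, and -1.43, -5.16, and -3.93 after DHI. Its rise was 8.9-fold (log2 fold change 3.16, SE 0.903, adjusted p = 0.0407), with the third I/R array again nearest to Sham.

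Slc11a2, the divalent metal transporter DMT1 found in most cells, stayed within a narrow range on its representative probe, 0.12 to 0.22 in Sham, -0.08 to 0.06 in I/R, and 0.11 to 0.31 after DHI. The I/R and Sham arrays did not overlap, but the difference was only -0.18 (95% interval -0.482 to 0.114, adjusted p = 0.274) and was not called. Slc40a1, which encodes the iron exporter ferroportin, was -2.99 to -3.20 in Sham and -2.18 to -2.91 in I/R. These did not overlap on the representative probe, but the second probe overlapped, and the difference of 0.58 (95% interval -0.177 to 1.34, adjusted p = 0.183) was not called.

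Cp, the ferroxidase ceruloplasmin, had the largest fitted change of the 10 representative probes. It was -1.38, -1.90, and -2.18 in Sham, 2.92, 2.54, and 2.16 in I/R, and 2.47, -2.27, and -1.50 after DHI. The rise in I/R was 20.5-fold (4.36 on the log2 scale, SE 1.07, 95% interval 1.89 to 6.83, adjusted p = 0.0396). This SE includes the scatter of the DHI arrays, whose SD was 2.55, against 0.403 in Sham and 0.381 in I/R. All 3 Cp probes rose, by 4.36, 4.44, and 5.16 on the log2 scale.

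The same 6 members were called with the same directions in I/R versus Sham under 10 of the 11 other processing settings tried, the fit of these 2 groups within their 1 slide included. With array weights all 6 were again called, and Tf and Slc40a1 in addition. Leaving out single arrays gave 5 to 7 called members. Of all 23747 probes 10241 were called with all arrays, 13243 with array weights, and 7517 to 11539 when single arrays were left out.

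**Figure D2:**
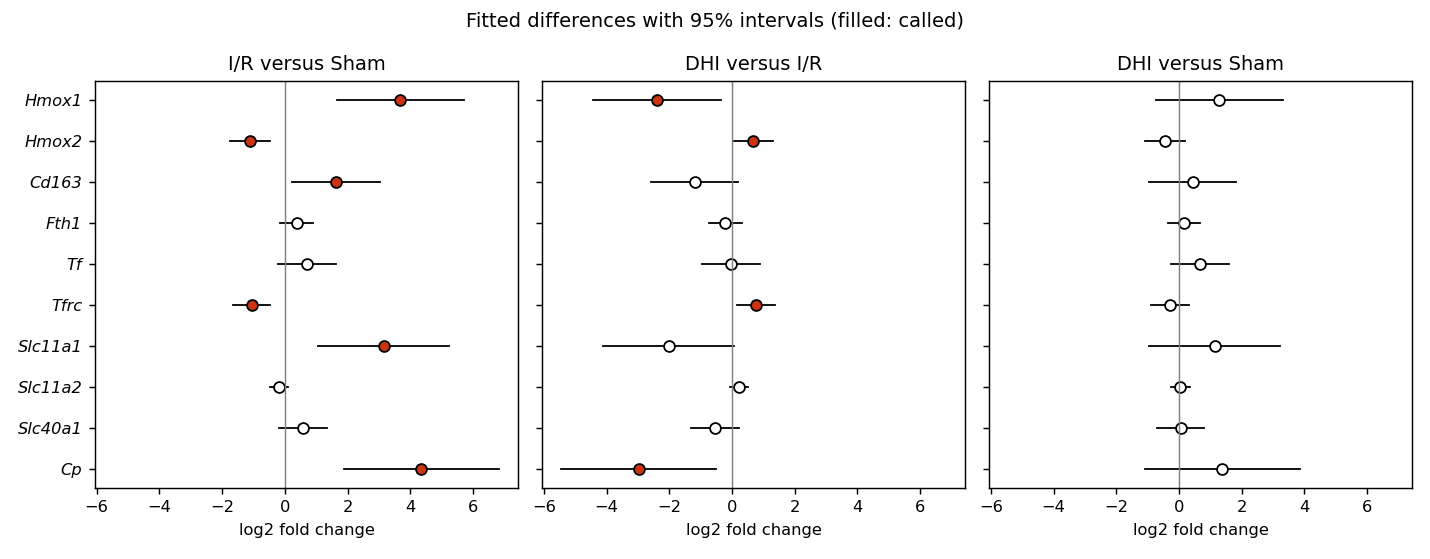
Fitted log2 fold changes (x axis) of the 10 representative probes in the 3 comparisons, with 95% intervals as lines and called genes as filled points. The filled points are 6 in I/R versus Sham, 4 in DHI versus I/R, and 0 after DHI versus Sham.

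Cell type markers moved with these genes. In I/R versus Sham, 5 of 6 tested markers of macrophages and phagocytosis rose, and the summed level of the list was 0.383 to 0.433 in Sham, 18.6 to 47.4 in I/R, and 0.362 to 39 after DHI. The rises were 124-fold for Gpnmb, 103-fold for Cd68, 35.4-fold for Msr1, 6.21-fold for Mrc1 (adjusted p = 0.0655), and 2-fold for F13a1. Lyve1 was not called, and Ccr2 was not tested. Cd68 and Gpnmb were the brightest of the list in I/R, so the sum there mostly reflects them. Of the microglial markers 6 of 7 rose (summed level 15.7 to 17.8 in Sham, 55.8 to 144 in I/R, 19.9 to 78.6 after DHI). The exception was Cx3cr1, which was not called (95% interval of the log2 difference -2.21 to 0.212). The part of these cells in the higher levels of Hmox1, Slc11a1, and Cd163 was not tested. All 6 neuronal markers fell, with a median log2 fold change of -2.76. Of these, 5 passed the adjusted p, and Gad1 did not (adjusted p = 0.0702). The mean log2 level of the neuronal list was -3.09, -2.5, and -0.371 on the I/R arrays, against 0.494 to 0.895 in Sham. The part of neurons in the lower Hmox2 and Tfrc was not tested either. Of 5 astrocyte markers 4 rose (summed level 32.6 to 36.3 in Sham, 56.1 to 76.9 in I/R, 31.4 to 61.5 after DHI), beside the rise of Cp. The part of astrocytes in the higher Cp was likewise not tested. Of 4 tested T cell markers 3 rose, Cd3g, Cd4, and Cd8a. Cd3e was not called (unadjusted p = 0.368 in limma), and Cd2 was not tested. Of 6 endothelial markers 2 rose and 1 fell.

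For Tf the oligodendrocyte list is the one to set beside it. Of its 7 markers, 1 rose (Cldn11, 1.93-fold), and the summed level overlapped between groups, with 143 to 167 in Sham, 111 to 162 in I/R, and 154 to 199 after DHI. Of 6 tested markers of the choroid plexus, another source of Tf, 2 rose in I/R versus Sham, Folr1 (22.8-fold, adjusted p = 0.0419) and Slc4a5, which was not well above background on any Sham array (at least 7.76-fold, adjusted p = 0.0766). In DHI versus Sham 2 rose, Ttr (74.2-fold) and Folr1 (14.8-fold), each at an adjusted p of 0.709. The summed level of this list was 0.617 to 1.22 in Sham, 1.23 to 93.8 in I/R (median 2.17), and 7.59 to 138 after DHI. The lowest I/R sum thus lay barely above the highest Sham sum. Ttr, not called in I/R versus Sham, was -0.54, 0.19, and 6.53 on the I/R arrays, against -1.65 to -0.21 in Sham. Clic6, Kcne2, and Otx2 were not called in that comparison either. The part of the oligodendrocyte and choroid plexus lists in the spread of Tf was not tested. Red blood cells bear on heme, and their list was split. Of 4 tested red cell markers, Hbb, Hba-a2, and Alas2 fell in I/R, by 2.17, 2.04, and 1.72 on the log2 scale (adjusted p = 0.0812, 0.0746, and 0.0728), while the anion exchanger Slc4a1 rose 3.86-fold (adjusted p = 0.0396) and alone passed the adjusted p. The summed level of the 5 red cell genes on the array was 3.75 to 29.7 in Sham, 2.33 to 3.36 in I/R, and 7.36 to 38.9 after DHI. Its part in the level of Hmox1 was not tested.

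**Figure D3:**
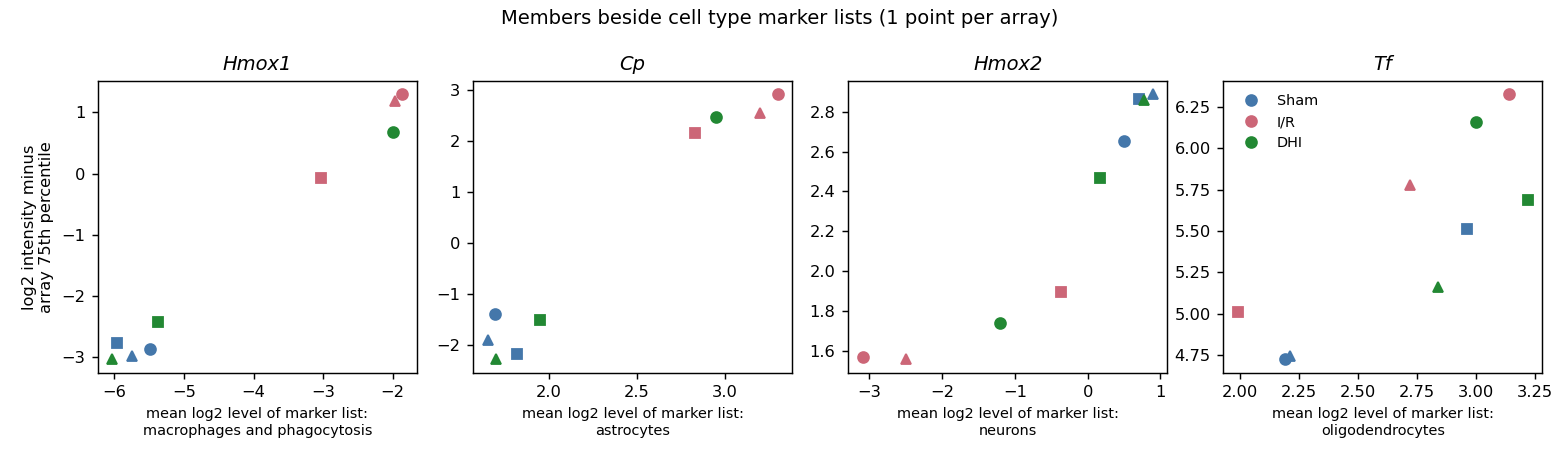
Levels of Hmox1, Cp, Hmox2, and Tf (y axes, log2 intensity minus the 75th percentile of the array) against the mean log2 level of a marker list (x axes), 1 point per array with color for the group and the symbol for the replicate number. The first DHI array lies among the I/R arrays for Hmox1, Cp, and Hmox2, and the other DHI arrays lie near the Sham arrays.

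Whether DHI changed these genes was asked by comparing DHI with I/R. Hmox1 and Cp fell and Hmox2 and Tfrc rose, each opposite to its change after I/R, but these calls rest on unadjusted p-values and on single arrays, and those of Hmox2 and Tfrc were lost without scaling. Of the 10 members 4 were called, 2 higher and 2 lower, where 21.9% of all probes were called, 11.5% higher and 10.5% lower. With the adjusted p, 0 of 10 members passed in limma, and 0.00421% of all probes did, which is 1 probe. For 2 of 10 members, Tfrc and Slc11a2, DHI and I/R arrays lay apart without overlap, as they did for 9.54% of all probes. The median log2 fold change of the members was -0.37, and that of all probes was 0.10. Both this comparison and the one before use the I/R arrays, so a high value there pulls them in opposite directions.

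Hmox1 was lower by 5.26-fold, a log2 fold change of -2.40 (SE 0.88, unadjusted p = 0.0263, adjusted p = 0.196). Cp was 7.86-fold lower, at -2.97 (SE 1.07, unadjusted p = 0.024, adjusted p = 0.196). Hmox2 was 1.6-fold higher (0.68, SE 0.276, unadjusted p = 0.0396, adjusted p = 0.196), and Tfrc was 1.7-fold higher (0.77, SE 0.259, unadjusted p = 0.0181, adjusted p = 0.196). Slc11a1 was close to the threshold at -2.02 (SE 0.903, unadjusted p = 0.0558, adjusted p = 0.199) and was not called, nor was Cd163 at -1.19 (SE 0.606, adjusted p = 0.221).

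The 3 DHI arrays were not alike. Hmox1 was 0.68 on DHI array 1, within the I/R range, and -3.04 on DHI array 2, below the Sham range. DHI array 1 was closer to the I/R mean than to the Sham mean for 9 of 10 members, all but Slc11a2. DHI array 2 was closer to Sham for all 10, and DHI array 3 for 9, all but Tf. The SD of the DHI group was 2.00 for Hmox1, against 0.101 in Sham and 0.756 in I/R, and it was 2.55 for Cp, against 0.403 and 0.381. The macrophage list followed the same order, with the highest DHI sum at 39 and the other sums at 0.362 and 0.971. The difference between these rats is a description, since no label separates them.

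Single arrays decided the DHI calls. Without DHI array 1, 7 of 10 members were called, with Slc40a1, Slc11a1, and Cd163 in addition, all lower. Without DHI array 2 or without DHI array 3, 0 members were called. Without I/R array 1 or I/R array 2, only Tfrc was called. In a fit of the I/R and DHI arrays alone, 1 member (Tfrc) was called, and by the methods' t-test 0. The calls among all 23747 probes moved likewise, from 5211 with all arrays to 10737 without DHI array 1. They were 939 without DHI array 2, 1127 without DHI array 3, 1381 without I/R array 1, and 1659 without I/R array 2. The 2-group fit called 2149 of all probes and the t-test 469, so these shifts are not particular to the members. Without any scaling between arrays, 6 members were called, all of them lower, against 2 higher and 2 lower with the scaling. Of all probes 7436 were called without scaling, of which 4.8% were higher. In that setting the median of all probes itself moved to -0.357, and neither Hmox2 (0.22) nor Tfrc (0.31) was called.

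Compared with Sham, DHI arrays showed no called member. Of the 10 members 0 were called, by limma or by the methods' t-test, 0 had an unadjusted p under 0.05, and 0 had DHI arrays that did not overlap with Sham. Among all probes 3.58% were called, 2.52% higher and 1.06% lower, 0% passed the adjusted p, and 18.6% did not overlap. The median log2 fold change of the members was 0.30, and that of all probes was 0.018. The intervals are wide: the Hmox1 difference was 1.28 (95% interval -0.749 to 3.31, adjusted p = 0.709) and the Cp difference was 1.38 (95% interval -1.09 to 3.85, adjusted p = 0.709). Thus a return to the Sham level was not shown for these 2 genes, and a difference was not detectable with 3 arrays a group. The intervals were narrower for Slc11a2 (-0.258 to 0.338) and for Fth1 (-0.362 to 0.684). Without DHI array 2, 2 members were called, Slc11a1 higher (1.96) and Hmox2 lower (-0.70). In that setting 2519 of all 23747 probes were called, against 849 with all arrays.

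Probes of the same gene can show whether parts or forms of a transcript changed unequally. The 3 Cp probes followed each other over the 9 arrays (Pearson's r 0.994 to 0.999). In the array files, the brightest of them is assigned to a transcript of the membrane-anchored (GPI) form of ceruloplasmin, and the other 2 to the other transcript. The probe at base 3596 rose more in I/R than the other 2, with the log2 ratio of the GPI probe to it at 1.68 (SD 0.295) in Sham and 0.878 (SD 0.259) in I/R, a change of -0.81. The exact permutation test over 3 against 3 arrays gave p = 0.1, which is the smallest p this design allows, and 0.386 after adjustment over the 27 comparisons of this kind. The ratio of the GPI probe to the probe at base 2800 was 3.67 in Sham and 3.58 in I/R (exact permutation p = 0.3). Both Tfrc probes fell (Pearson's r 0.959), and the Fth1 and Slc40a1 pairs also varied together (0.981 and 0.924).

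Slc11a2 was the exception, since its 3 probes did not follow each other (Pearson's r -0.435, 0.0205, and 0.38 over the 9 arrays). The probe at base 4271, called the end probe here, holds a polyadenylation signal, and the one at base 1618 lies upstream in the same transcript. The third probe is assigned to another transcript. Where either transcript ends was not determined. Slc11a2 is known to be made with alternative ends, with and without an iron-responsive element, and which form each probe reads was not determined here. The difference of the end probe minus the upstream probe was 1.48 (SD 0.081) in Sham, 1.20 (SD 0.0462) in I/R, and 1.56 (SD 0.118) after DHI. It was therefore lower by 0.29 on the log2 scale in I/R than in Sham, and higher by 0.37 in DHI than in I/R, without overlap in either case (exact permutation p = 0.1 for each, the smallest possible, 0.386 adjusted). Against the third probe the end probe gave 1.43 in Sham, 1.31 in I/R, and 1.61 after DHI, again at exact permutation p = 0.1 for I/R versus Sham and for DHI versus I/R. The upstream probe minus the third probe was -0.0482 in Sham, 0.114 in I/R, and 0.0438 after DHI. Its exact permutation p was 0.1 for I/R versus Sham and 0.4 for DHI versus I/R. The shift in I/R versus Sham was thus not confined to ratios with the end probe. These ratios within an array do not depend on the scaling between arrays. With 3 arrays a group this test could not reach a p under 0.05 for any ratio, and the slide of the DHI arrays remains tied to the group.

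**Figure D4:**
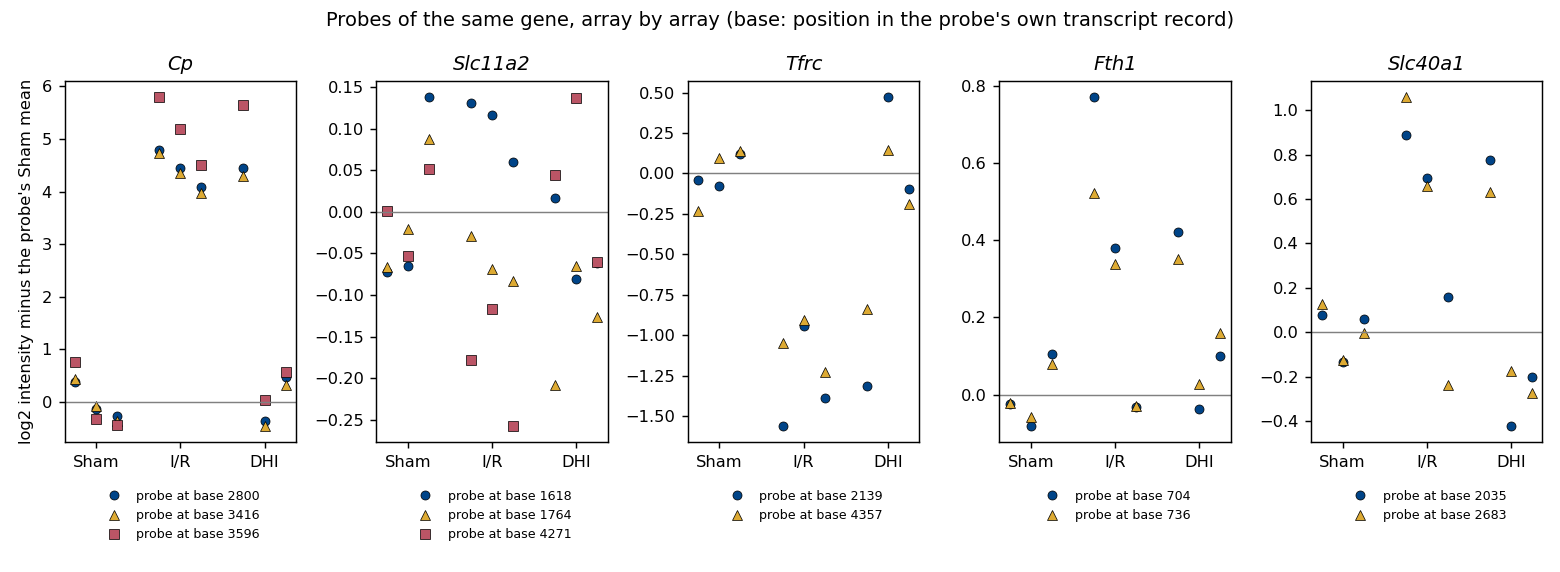
Log2 intensity of each probe minus its own Sham mean (y axis) on the 9 arrays in order of group and replicate (x axis), for the 5 members with more than 1 probe. The symbols give the base in the transcript at which a probe starts. The Cp probes move together, while the Slc11a2 probes at bases 4271 and 1618 diverge in I/R (mean log2 difference from Sham -0.18 and 0.10).

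Over the 9 arrays the members fell into few patterns, which are descriptions and include the group differences. Hmox1 varied with Cp (Pearson's r 0.986) and Slc11a1 (0.982), and Hmox2 varied with Tfrc (0.943). Among 15583 named genes, the 3 closest to Hmox1 were Blnk, Soat1, and Ifi30 (0.999, 0.9987, and 0.9987), and the 3 closest to Cp were Aebp1, Anxa1, and Col3a1 (0.999, 0.9987, and 0.9976). The closest to Hmox2 were LOC686590, Abcd2, and Tmem44, the closest to Tfrc were Tbc1d25, Fmc1, and Ppp2r2d, and the closest to Slc11a1 were Ttk, Sat1, and Decr1. Those closest to Cd163 were Birc2, Crlf2, and Atic. Tf was closest to Slc44a1, Ppap2c, and Klk6 (0.991, 0.9892, and 0.9874), and genes close to Fth1 included LOC691895 and Chmp2a (0.9788 and 0.9778), and those close to Slc40a1 included Etfa and Apoa5 (0.9822 and 0.9812). The highest values for Slc11a2 were lower than for the others, 0.9519 for Rnf152, 0.9346 for Hpn, and 0.9175 for LOC100361577.

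A wider list of heme and iron genes gave the setting of the 10 members. Of 55 listed genes 52 were on the array by name and 48 were tested. In I/R versus Sham 22 of the 48 were called, 19 higher and 3 lower, beside 43.1% of all probes, with a median log2 fold change of 0.18 against -0.097 for all probes. The rises lay mostly in uptake and transport, with 6 higher and 1 lower of 11, and among regulators, with 7 higher of 10. Among all probes 20.8% were called higher and 22.3% lower. With the adjusted p, 6 of the 11 (the lower one included) and 5 of the 10 passed, beside 31.5% of all probes. Of the 4 storage genes tested, Ftl1 not among them, 0 were called in limma. Of these 1, the ferritin cargo receptor Ncoa4, had an unadjusted p under 0.05 with a log2 difference of 0.52. The number called was 14 without Sham array 2, without I/R array 1, or without I/R array 2, against 22 with all arrays. Of all 23747 probes 8173, 7517, and 7971 were called in these settings, against 10241 with all arrays.

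The largest rises in the wider list were those of Steap4 (log2 fold change 3.39), a metalloreductase, and Lcn2 (3.34), which binds iron carriers of bacteria. They were followed by Cybrd1 (7.15-fold), a ferric reductase, Bmp6 (6.25-fold), the signal that induces hepcidin, Steap1 (6.2-fold), and Hpx, the heme-binding hemopexin. Hpx was not well above background on any Sham array, so its rise is given as at least 4.09-fold (adjusted p = 0.0525). Among the genes that fell were Alas2 (3.28-fold), the heme synthesis enzyme of red cell precursors, and Steap2 (2.22-fold), another metalloreductase. In DHI versus I/R 7 of the 48 were called, 2 higher and 5 lower, where 21.9% of all probes were called. Bmp6 (4.77-fold), the oxidative stress regulator Nfe2l2 (2.66-fold), and the metal importer Slc39a8 (2.5-fold) fell, and Alas2 (4.17-fold) and Tmprss6 (1.51-fold) rose, with 0 passing the adjusted p in limma. The number called in DHI versus I/R was 20 without DHI array 1, 1 without DHI array 2, and 3 without DHI array 3. It was 4 without Sham array 1, without Sham array 3, or without I/R array 1, and 3 without I/R array 2. Of all 23747 probes 5211 were called with all arrays, and 10737, 939, and 1127 without DHI array 1, 2, and 3. Without Sham array 1, Sham array 3, I/R array 1, and I/R array 2, the calls among all probes were 3922, 3803, 1381, and 1659. In DHI versus Sham, where 3.58% of all probes were called, 2 of the 48 were called, Lcn2 (3.8-fold) and the protease Tmprss6 (1.59-fold), both higher at an adjusted p of 0.709, and the number was 0 without Sham array 2, 1 without Sham array 1, Sham array 3, or I/R array 2, and 5 without DHI array 2.

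**Figure D5:**
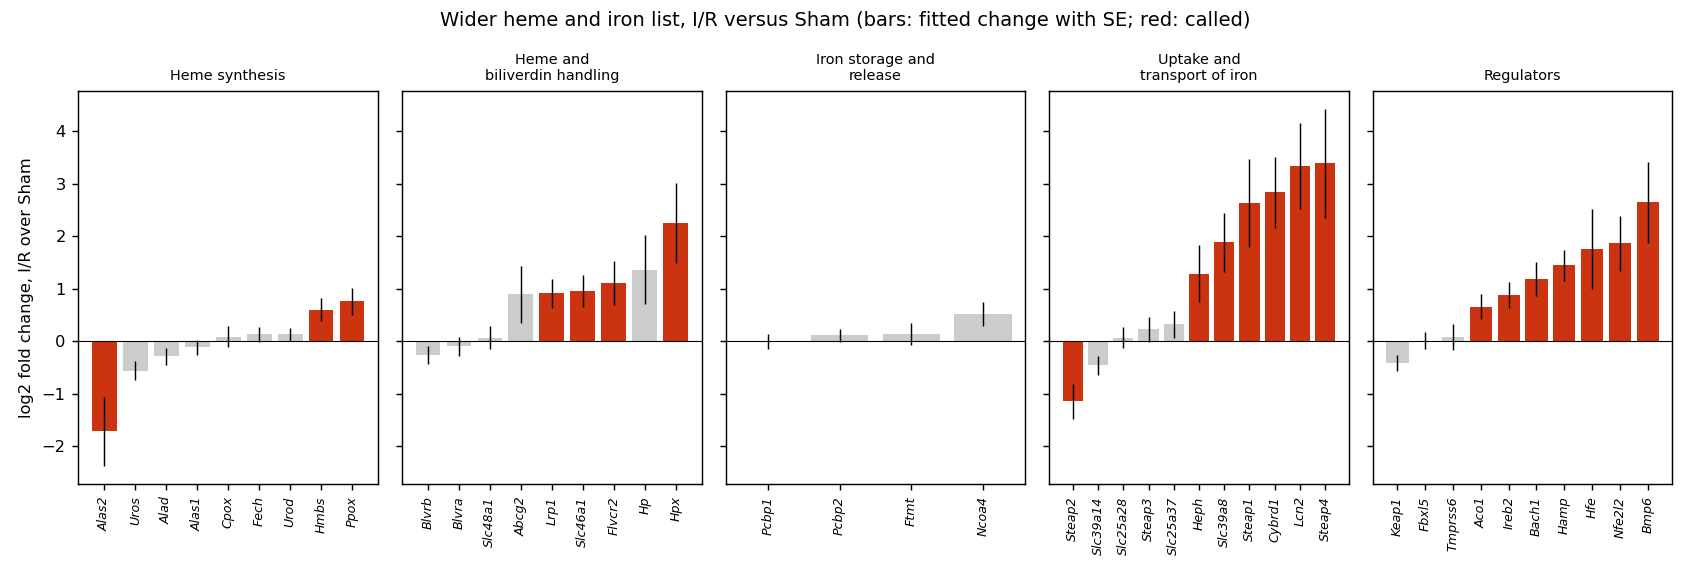
Log2 fold changes of I/R over Sham (y axis) for tested genes of the wider heme and iron list, in 5 groups by role, with a further group of the list not shown; bars are fitted changes with their SE, and red marks called genes. Steap4 and Lcn2 are the highest bars, at 3.39 and 3.34, and Alas2 is the lowest, at -1.72.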

How the data were processed

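Each array is the brain RNA of 1 rat, and groups came from the sample labels. The authors deposited spot intensities from Agilent Feature Extraction 10.7.1.1 (processing notes), corrected for background within each array only. A log2 table that the authors deposited followed quantile-normalized intensities (Pearson's r 0.99953 on each array), and its normalization is not given in the sources used here. Control spots and spots marked as outliers (392 to 725 per array) were left out. Log2 intensities were scaled by the 75th percentile of each array (1816.3 to 3464.4), after which repeat spots were averaged. Between 75.2% and 78.9% of probes were well above background per array, and 0 were saturated. The number of arrays limits the precision. A probe was tested when some group had it well above background on each of its 3 arrays.

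One limma 3.58.1 model (R 4.3.3, lmFit and eBayes, 6 residual degrees of freedom) covered all 9 arrays, with Benjamini-Hochberg adjustment over all tested probes. The model was also run on simulated arrays with known changes. Their noise was independent and of equal spread in all groups, so this run cannot show how the model behaves with unequal spreads. Ratios of probes were compared by exact two-sided permutation tests. Of 17 member probes, 15 matched the RefSeq table by accession. The members, the wider list, the markers, and the rule for named genes (all members, the called genes of the wider list with the largest changes, and the 3 genes of the highest correlation) were chosen with earlier results of these data known. Alternatives tried were quantile normalization, no scaling, normexp (offset 50), the authors' table, other filters, 2-group fits, array weights, a replicate block, the methods' t-test, the mean of all probes of a gene, and leaving out each array. No value column was left unused (0 columns). Protein sequences were not used here. Some genes that this rule names are not reported here.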

Additional observations from a re-analysis of the deposited data

How the results depend on the processing

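The call counts of the members in I/R versus Sham stayed between 5 and 8 in every setting. In DHI versus I/R (4 called) the count was 1 in the fit of only the 2 groups compared, 7 with array weights, and 0 by the methods' t-test, and it ranged from 0 to 7 when single arrays were left out. Of all 23747 probes 5211 were called as reported, 2149 in the 2-group fit, 12217 with array weights, and 469 by the t-test. In DHI versus Sham (0 called) the member count was 1 without scaling (Hmox2) and 2 with array weights (Tf and Slc11a1), and from 0 to 2 when single arrays were left out. There 849 of all probes were called as reported, 1688 without scaling, and 4175 with array weights. The estimate of the array weights did not converge and gave DHI array 3 a weight of 131, so the values with array weights rest mostly on that array.

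Only values that were not called changed sign. Without scaling, Slc11a2 was 0.012 in I/R versus Sham, -0.24 in DHI versus I/R, and -0.22 in DHI versus Sham, and in DHI versus Sham Fth1 was -0.10 and Slc40a1 was -0.21. In DHI versus Sham, Slc40a1 was -0.056 with quantile normalization, -0.059 in the authors' table, and -0.18 with array weights, and Slc11a2 was -0.057 with array weights and -0.045 as the mean of its probes. With single arrays left out, the range of Tf in DHI versus I/R was -0.38 to 0.28. In DHI versus Sham the ranges were -0.31 to 0.29 for Slc40a1, -0.0078 to 0.091 for Slc11a2, -0.070 to 2.30 for Cp, and -0.20 to 0.82 for Cd163.

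No label pairs the rats by replicate number. Deviations of same-numbered arrays from their group means correlated between -0.341 and 0.476. Arrays of different numbers were not compared, so these values cannot show whether rats were paired. With the replicate number as a block, 6, 5, and 0 members were called in the 3 comparisons, and the added call was Cd163 in DHI versus I/R (-1.19). Normexp moved the median of all probes in DHI versus I/R from 0.10 to 0.23 and no scaling moved it to -0.357. Of all probes called in DHI versus I/R, 52.2% were higher as reported, 4.8% without scaling, and 63.7% with normexp. The numbers of all probes called there were 5211 as reported, 7436 without scaling, 12217 with array weights, and 6313 with the replicate block. They were 2149 in the 2-group fit and 469 by the methods' t-test. The wider list had 7 called in DHI versus I/R, 18 without scaling, 22 with array weights, 11 with the replicate block, 3 in the 2-group fit, and 1 by the methods' t-test. In DHI versus Sham it had 2 called, 1 with quantile normalization or in the authors' table, 8 with array weights, and 0 by the methods' t-test.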
